A study of Rattus norvegicus with 34 samples.

Results

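Left ventricles (LV) of rats whose myocardial infarction was small (S-MI, n = 6) or moderate (M-MI, n = 6) were pooled as 12 hearts with compensated injury and compared with LV of sham-operated rats (n = 6). The groups follow the titles of the arrays, and these 18 arrays are part of 34 in the series. The pooled difference is the mean of the S-MI and M-MI differences from sham, so that a shift shared by both infarct groups is estimated from 12 hearts, and the difference of each infarct group is given beside it. All rats were male Wistar, 1 array was hybridised per rat, and tissue was collected 2 months after surgery. The infarct groups had the proximal left coronary artery ligated, whereas in sham rats the suture was not tied. The labels give no age and no genotype other than the strain. RNA came from the whole LV in sham rats and from the morphologically unaffected part of the LV in infarcted rats, so the region sampled and the operation cannot be told apart. LV of rats with large infarcts and heart failure (L-MI, n = 5) served as a second point of reference. The description of 1 of these 5 arrays (L-MI replicate 1) speaks of compensated injury, against its title.

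After coronary occlusion the surviving myocardium is exposed to a higher load. In failing hearts it is known for renewed expression of natriuretic peptides, deposition of extracellular matrix, infiltration by macrophages and lower expression of fatty acid oxidation enzymes. In compensated hearts the pump function is largely kept, and such programmes are less well described.

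Expression was given as log2 signal for 29214 transcript clusters, the units of the array that mostly stand for 1 gene each. Values below are log2 signals or differences between them, and the number of arrays limits their precision. Arrays of a group correlated with each other at r between 0.990 and 0.996. On the first principal component of the 18 arrays, which held 19% of the variance, 4 arrays (replicates 4 and 6 of sham, 4 and 5 of S-MI) lay at -103 or below, the M-MI arrays between 38.1 and 67.8, and all other arrays at -57.6 or above. Of 76 refitted clusters with an unadjusted p below 0.05 in the pooled comparison, 59 kept it without these 4 arrays. Many had been picked by their p in all 18 arrays, so part of this retention was built in. Those lost among the refitted genes described below are named beside their results. Acads, Cd55, Gfra3, Pgam2, Scn7a, cluster 10793304 of Dlat and the unnamed cluster described below were not refitted in this way. Markers of cardiomyocytes had a mean level of 12.89 to 12.92 in sham, 12.88 to 12.90 in S-MI and 12.86 to 12.93 in M-MI, and 0 of 10 had an unadjusted p below 0.05.

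No transcript cluster passed the test between the 12 infarcted and the 6 sham hearts. With limma, 0 of 29214 (0%) reached a Benjamini-Hochberg adjusted p of 0.05, with or without the fold of 1.3 that the study required, and the smallest adjusted p was 0.165. An unadjusted p below 0.05 was found for 1514 (5.18%), of which 708 (2.42%) were higher and 806 (2.76%) lower in infarcted hearts. The unadjusted p values were spread almost evenly between 0 and 1. The median pooled difference was 0.00, and the 5th and 95th percentiles over all clusters were -0.13 and 0.13. At the median, the 95% interval reached 0.13 to either side of the difference, and for 27057 clusters (92.6%) the interval lay wholly within a fold of 1.3 in either direction. For the other clusters the interval reached beyond that fold. Intervals of single genes given below are not adjusted for the number of genes tested. Apart from LOC100364751 and an unnamed cluster, every pooled difference named below had an adjusted p of 0.885 or more.

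Both infarct groups differed from sham in the same direction for 1504 of the 1514 clusters with an unadjusted p below 0.05 (99.3%), and in opposite directions for 10. This count follows in large part from the way the pooled difference is made, and both groups were set against the same 6 sham arrays. Each group passed an unadjusted p of 0.05 by itself in 291 of the 1514. Neither group gave a call alone: for S-MI the smallest adjusted p was 0.0594 and 1885 clusters (6.45%) had an unadjusted p below 0.05, 3.63% higher and 2.82% lower. For M-MI these values were 0.680 and 2094 (7.17%), 3.27% higher and 3.90% lower.

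**Figure D1:**
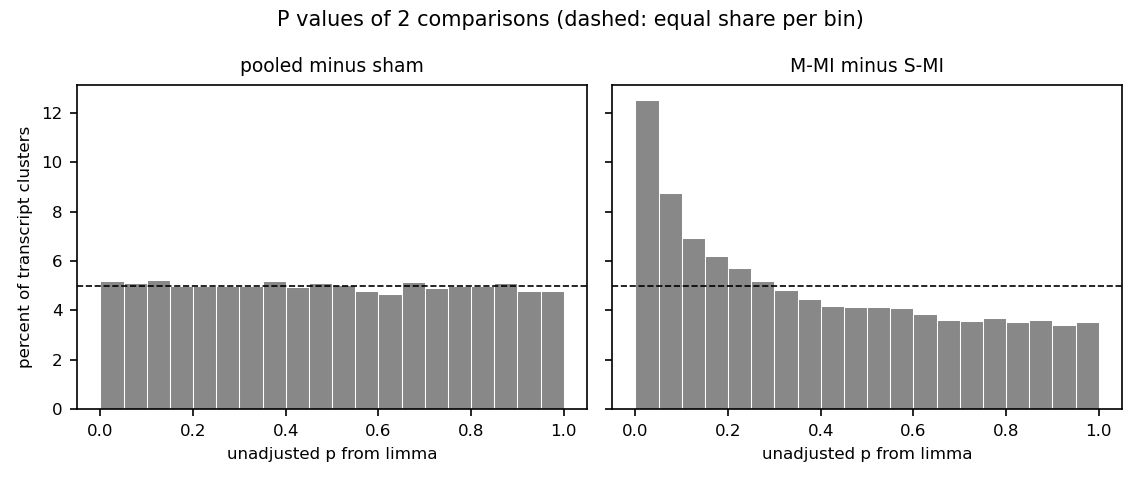
Share of the 29214 transcript clusters (vertical axis, percent) in 20 equal bins of the unadjusted limma p (horizontal axis) for pooled infarcts minus sham (left) and M-MI minus S-MI (right); the dashed line is an equal share per bin. The lowest bin holds 5.18% on the left and 12.5% on the right.

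The genes of smallest p among the higher ones included members of the killer cell lectin-like receptor group, which natural killer cells use to recognise class I molecules of the major histocompatibility complex. LOC100364751, which the study's tables name as a receptor of subfamily A (the Ly49 group), has 2 transcript clusters on the array. For cluster 10866144 the signal ran from 6.00 over a median of 6.17 to 6.30 in sham, from 6.49 over 6.61 to 6.75 in S-MI and from 6.30 over 6.48 to 6.67 in M-MI. All 12 infarct arrays lay above all 6 sham arrays, which held for 1 of the 29214 clusters (0.00342%), while 0 clusters (0.00%) had all 12 below. This cluster was picked by its small p in the same comparison, so the separation only describes it. How many clusters would separate by chance was not tested. The pooled difference was 0.40 ± 0.06 (SE, adjusted p = 0.165 by limma), with 0.47 in S-MI and 0.33 in M-MI. The mean in L-MI was 6.56, and L-MI differed from the pooled infarcts by 0.01 (adjusted p = 0.954).

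The other cluster of LOC100364751, 10866140, ran from 5.57 to 5.77 in sham (median 5.65), from 6.01 to 6.47 in S-MI (median 6.20) and from 5.60 to 6.15 in M-MI (median 5.93). The S-MI arrays did not overlap sham, whereas 2 M-MI arrays did. Here and below, the share of all clusters in which 6 arrays separate from 6 others was not counted. Nor was the share in which most of the 12 infarct arrays lie outside the range of sham. Such separations only describe the gene, and many genes shown were picked by their p in the same comparison. Cluster 10866140 also had a pooled difference of 0.40 (adjusted p = 0.885 by limma), but 0.57 in S-MI and 0.23 in M-MI. The direct difference of M-MI from S-MI was -0.34 (adjusted p = 0.254). Cluster 10866142, which has no gene name in the annotation used here, had the smallest p among unnamed clusters, with a pooled difference of 0.67 (adjusted p = 0.643), made of 0.93 in S-MI and 0.42 in M-MI. Without the 4 arrays that stood apart, cluster 10866144 of LOC100364751 differed by 0.43 and cluster 10866140 by 0.32 (adjusted p = 0.701 and 0.856 by limma).

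Klrc3, a receptor of the NKG2 family, ran from 6.70 to 7.01 in sham (median 6.93), from 7.03 to 7.73 in S-MI (median 7.43) and from 6.82 to 7.70 in M-MI (median 7.28). All S-MI arrays and 4 of the M-MI arrays lay above the highest sham array. The pooled difference was 0.44 ± 0.12 (SE, adjusted p = 0.885), with 0.50 in S-MI and 0.37 in M-MI.

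**Figure D2:**
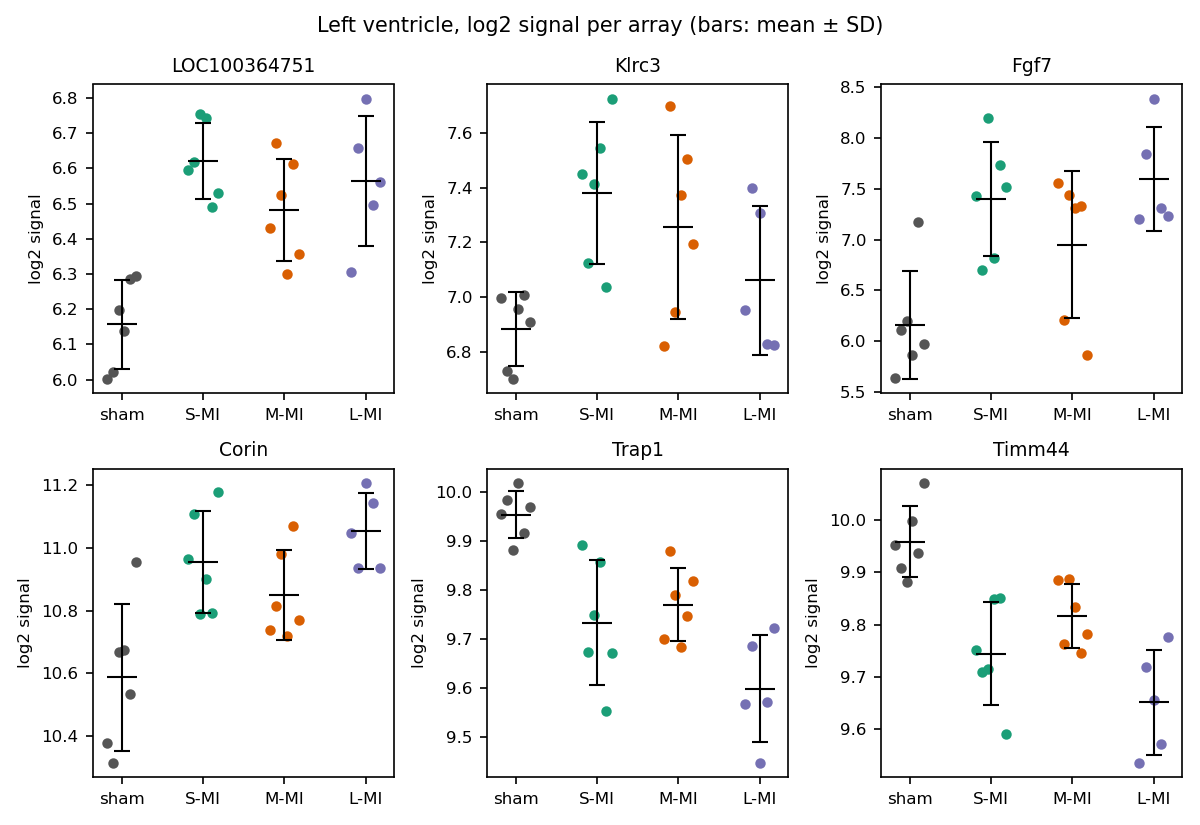
Log2 signal (vertical axis) of 6 genes in each LV array, by group (horizontal axis: sham, S-MI and M-MI, n = 6 each, and L-MI, n = 5), with bars for mean ± SD. For LOC100364751 (cluster 10866144) the highest sham array is at 6.30 and the lowest infarct array at 6.30 when rounded, without overlap; for Trap1 11 of the 12 compensated infarct arrays lie below the lowest sham array.

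Among the other higher genes, Fgf7, a growth factor that fibroblasts release for epithelial cells, had the largest difference. It ran from 5.64 to 7.17 in sham (median 6.04), from 6.70 to 8.20 in S-MI (median 7.48) and from 5.86 to 7.55 in M-MI (median 7.32). The groups overlapped, and 8 of the 12 infarct arrays lay above the highest sham array. The pooled difference was 1.02 ± 0.28 (SE, adjusted p = 0.885), with 1.24 in S-MI and 0.79 in M-MI. Without sham replicate 5, the highest sham array, it was 1.22.

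H19, an imprinted noncoding RNA, had the same difference in both infarct groups on cluster 10726995, 0.33 in S-MI and 0.33 in M-MI, and 11 of 12 infarct arrays lay above sham (adjusted p = 0.885). Its cluster 10726991 differed by 0.52 (95% interval 0.14 to 0.89), 0.58 in S-MI and 0.45 in M-MI, and by 0.37 without the 4 arrays that stood apart, no longer with an unadjusted p below 0.05. Clec4a2, a lectin receptor of myeloid cells, was higher by 0.37 in S-MI and 0.28 in M-MI, and L-MI lay a further 0.30 above the pooled infarcts (adjusted p = 0.0383). Clint1, an adaptor of clathrin-coated vesicles, differed by 0.17 (95% interval 0.08 to 0.26), but by 0.26 in S-MI against 0.09 in M-MI, and M-MI differed from S-MI by -0.17 (adjusted p = 0.271). Fabp5, a fatty acid binding protein, differed by 0.29 in S-MI and 0.12 in M-MI, and L-MI was below the pooled infarcts by 0.21 (adjusted p = 0.0343). The remaining higher genes of smallest p were Clba1 (0.32), the taste receptor gene Tas2r120 (0.56), Zar1 (0.16) and Kif2b (0.23). Zar1 differed by 0.10 without the 4 arrays that stood apart.

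Among the lower genes of smallest p, Trap1, the mitochondrial chaperone of the HSP90 family, ran from 9.88 to 10.02 in sham (median 9.96), from 9.55 to 9.89 in S-MI (median 9.71) and from 9.68 to 9.88 in M-MI (median 9.77). Of the 12 infarct arrays 11 lay below the lowest sham array. The pooled difference was -0.20 ± 0.05 (SE, adjusted p = 0.885), with -0.22 in S-MI and -0.18 in M-MI, and the mean of L-MI was 9.60 (L-MI minus pooled -0.15, adjusted p = 0.0714).

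Timm44, which anchors the import motor at the inner mitochondrial membrane, ran from 9.88 to 10.07 in sham (median 9.94), from 9.59 to 9.85 in S-MI (median 9.73) and from 9.75 to 9.89 in M-MI (median 9.81). The S-MI arrays lay wholly below sham and 2 M-MI arrays overlapped it. The pooled difference was -0.18 (adjusted p = 0.885), with -0.21 in S-MI and -0.14 in M-MI. Dguok, the mitochondrial deoxyguanosine kinase, was lower by 0.27 in S-MI and by 0.09 in M-MI, M-MI and S-MI differed by 0.18 (adjusted p = 0.28), and L-MI lay below the pooled infarcts by 0.20 (adjusted p = 0.0206).

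Among the other lower genes, Appl2, an endosomal adaptor, differed by -0.27 in S-MI and -0.27 in M-MI (95% interval -0.40 to -0.14 pooled), and 8 of 12 infarct arrays lay below all sham arrays. Prmt1, the main protein arginine methyltransferase, differed by -0.13 and -0.15, and Unc119 by -0.17 and -0.20. L-MI was above the pooled infarcts for Unc119 by 0.22 (adjusted p = 0.0135). Hnrnpa2b1, an RNA-binding protein of splicing, differed by -0.17 in S-MI and -0.06 in M-MI, with M-MI above S-MI by 0.11 (adjusted p = 0.282). Map4k1, Cenpu, Gipc1 and the vomeronasal receptor genes Vom2r56 and Vom1r77 completed the 12, with pooled differences of -0.29, -0.21, -0.18, -0.48 and -0.22. The signals of Vom1r77 (2.43 to 3.07 over the 18 arrays) were among the dimmest named here. The largest differences below sham at an unadjusted p below 0.01 also included Mid1ip1, a regulator of lipid synthesis (-0.48), and the cadherin gene Cdh19 (-0.45).

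**Figure D3:**
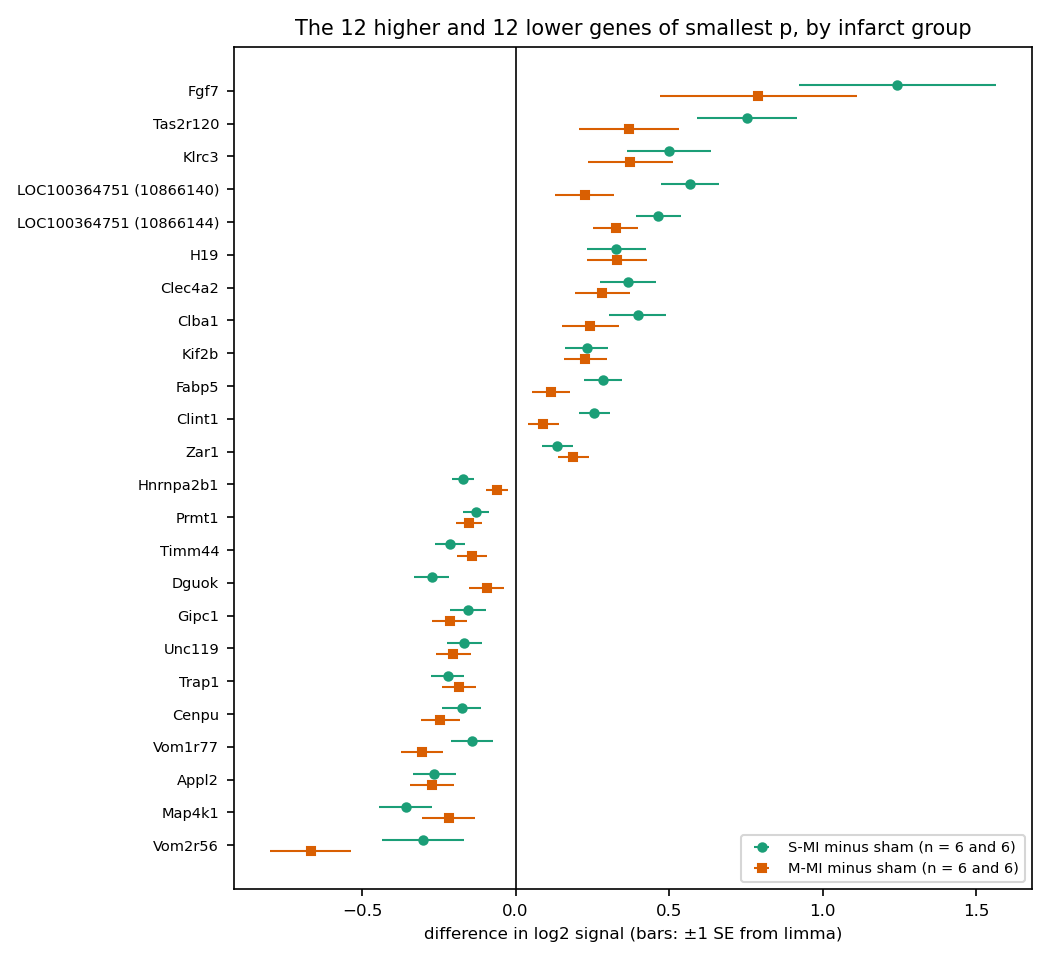
Difference from sham in log2 signal (horizontal axis, bars ±1 SE from limma) in S-MI (circles) and M-MI (squares) for the 12 higher and 12 lower genes of smallest pooled p; H19 is shown by cluster 10726995. All 24 have the same sign in both groups, and both groups share the sham arrays.

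The study assayed 38 genes by RT-qPCR, here measured by 39 transcript clusters. Part of them were picked from the array results of these hearts, so the list is not independent evidence of a direction. In the pooled comparison 8 clusters had an unadjusted p below 0.05, all higher, against 2.42% of all clusters, and 0 passed after adjustment. The median difference was 0.04 against 0.00 over all clusters. S-MI and M-MI had the same sign in 29 and opposite signs in 10. The 95% interval lay within a fold of 1.3 for 26. L-MI exceeded the pooled infarcts in 25 and was below them in 2 at an adjusted p of 0.05 and a fold of 1.3, against 1.77% and 0.722% of all clusters (727 called in all, 2.49%).

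Corin, the cardiac protease that activates the natriuretic peptides, ran from 10.31 to 10.96 in sham (median 10.60), from 10.79 to 11.18 in S-MI (median 10.93) and from 10.72 to 11.07 in M-MI (median 10.79). A single high sham array overlapped the infarct arrays, of which 5 lay above it. The pooled difference was 0.31 ± 0.09 (SE, adjusted p = 0.885), with 0.37 in S-MI and 0.26 in M-MI, and 0.46 pooled without the 4 arrays that stood apart. L-MI differed from the pooled infarcts by 0.15 (adjusted p = 0.356). The peptides themselves overlapped between the groups. Nppa, the atrial natriuretic peptide, differed by 0.20 (95% interval -0.34 to 0.73), with L-MI a further 1.70 higher (adjusted p = 8.69e-05). The difference of Nppa ranged from 0.07 with M-MI replicate 5 left out to 0.31 with the first sham replicate left out. Nppb, the B-type peptide, differed by -0.30 (95% interval -0.82 to 0.21), and 1 S-MI array (replicate 4) stood at 10.50 against a group median of 12.37. The difference of Nppb was -0.14 without that array and -0.10 without the 4 arrays that stood apart.

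Of the matrix genes assayed, Fn1 (fibronectin) differed by 0.30 (95% interval 0.04 to 0.56), Mmp14, a membrane-bound collagenase, by 0.20 (95% interval 0.02 to 0.37), Tgfb2 by 0.20 (95% interval 0.01 to 0.38) and Eln (elastin) by 0.14 (95% interval 0.00 to 0.27), each with an adjusted p of 0.957. S-MI and M-MI gave 0.24 and 0.36 for Fn1, 0.22 and 0.17 for Mmp14, 0.21 and 0.18 for Tgfb2, and 0.08 and 0.20 for Eln. L-MI then exceeded the pooled infarcts by 1.26 for Fn1 (adjusted p = 4.69e-06) and by 0.81 for Tgfb2 (adjusted p = 0.00115). LOC689800, a C-type lectin-related protein in the study's tables, differed by 0.28 (95% interval 0.07 to 0.49), 0.38 in S-MI and 0.18 in M-MI. Without the 4 arrays that stood apart it differed by 0.44, and Tgfb2 no longer had an unadjusted p below 0.05.

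Thbs4 (thrombospondin 4) differed by -0.03 from sham (95% interval -0.28 to 0.22), while L-MI exceeded the pooled infarcts by 2.66 (adjusted p = 5.61e-08). For Col8a1 these values were -0.01 (95% interval -0.17 to 0.16) and 1.13 (adjusted p = 1.69e-07). Cp (ceruloplasmin, the copper-carrying ferroxidase) differed by 0.08 (95% interval -0.08 to 0.23), while L-MI was 1.11 higher (adjusted p = 5.61e-08). The difference of Cp was 0.04 without S-MI replicate 6 and 0.13 without the 4 arrays that stood apart. Postn (periostin) differed by 0.22 (95% interval -0.08 to 0.51), 0.37 in S-MI and 0.06 in M-MI, and L-MI lay 2.78 above. The fibrillar collagen Col1a1 differed by 0.05 and Col3a1 by -0.02. Hcn4, the pacemaker channel, was a gene on which the groups were opposite, with -0.05 in S-MI and 0.35 in M-MI.

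**Figure D4:**
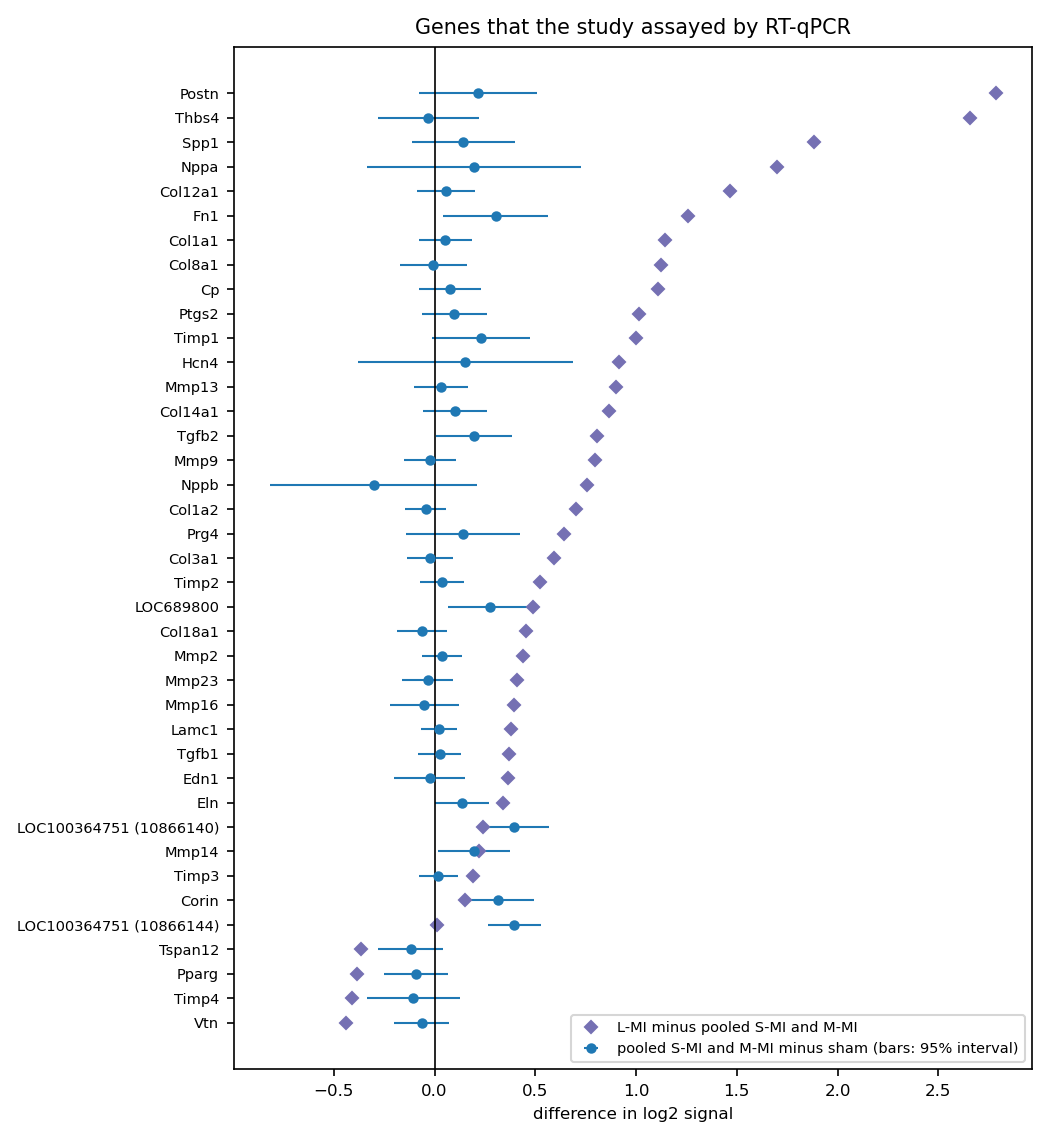
Difference in log2 signal (horizontal axis) of the 39 transcript clusters assayed by the study: pooled S-MI and M-MI minus sham (circles, bars are 95% intervals) and L-MI minus the pooled infarcts (diamonds). The pooled differences lie between -0.30 and 0.40, while the L-MI differences reach 2.78.

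Related genes and cell type markers were then counted by list. Every list count below is to be read against the shares of all clusters, 2.42% higher and 2.76% lower. In a short list 1 or 2 such clusters can be near those shares. The killer lectin-like receptors and their relatives had 10 higher and 1 lower of 34 clusters at an unadjusted p below 0.05, against 2.42% and 2.76% of all clusters, yet the median over the list was 0.01 and 0 passed after adjustment. Beside LOC100364751, Klrc3 and LOC689800, the higher ones were Klra22, Klri2, Clec2dl1, Klrc1, Klrc2 and Klrd1, of which the first 5 are named here because of their values. Klrd1 (CD94), the partner of the NKG2 receptors, differed by 0.41 in S-MI and 0.06 in M-MI, and M-MI lay below S-MI by 0.35 (adjusted p = 0.271). Klra22 differed by 0.28 and 0.03, with M-MI below S-MI by 0.24 (adjusted p = 0.187). Ly49i7 was the lower one, with -0.15 in S-MI and -0.30 in M-MI. In the direct comparison 7 of the 34 clusters had M-MI below S-MI and 0 above at an unadjusted p below 0.05, against 6.47% and 6.06% of all clusters. Genes of this family are near-identical copies, so probes may share signal and the assignment to single genes is uncertain. Without the 4 arrays that stood apart, Clec2dl1, Klrc1 and Klrc2 no longer had an unadjusted p below 0.05. Of 6 markers of natural killer cells outside this list, 0 had an unadjusted p below 0.05, and their pooled differences lay between -0.07 and 0.08. The mean level of all 8 markers, Klrd1 and Klrb1a included, was 6.67 to 7.08 in sham, 6.58 to 7.05 in S-MI and 6.72 to 6.97 in M-MI. In bulk tissue fewer cells of a type and less RNA per cell cannot be told apart.

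Macrophage markers were higher in 5 of 11 clusters and lower in 0 at an unadjusted p below 0.05, with a median of 0.15 (0.17 in S-MI, 0.11 in M-MI), and all 11 had a difference above 0. They were Lyz2 (lysozyme, 0.29), C1qb (0.22), Cd68 (0.17), Fcgr1a (0.17, named after its value was seen) and Csf1r, the receptor of macrophage growth factor (0.14). C1qb, a subunit of the first complement component, ran from 8.84 to 8.94 in sham (median 8.90), from 8.94 to 9.43 in S-MI (median 9.13) and from 8.50 to 9.33 in M-MI (median 9.16). Of the 12 infarct arrays 11 lay above sham and 1, M-MI replicate 1, below it. The mean level over the list was 7.83 to 8.05 in sham, 7.99 to 8.31 in S-MI and 7.77 to 8.19 in M-MI, so the groups overlapped. L-MI, at 8.37 to 8.93, exceeded the pooled infarcts in 9 of 11. The count of 5 was 2 without sham replicate 5, and 3 without sham replicate 2, sham replicate 6 or S-MI replicate 6 or with arrays centred on their medians. Cd68 and Fcgr1a no longer had an unadjusted p below 0.05 without the 4 arrays that stood apart.

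Complement genes were higher in 5 of 17 clusters and lower in 0, with a median of 0.09. These were Cfd (factor D, 0.15), C1qb, C6 (0.34), C5ar1, the receptor of the C5a peptide (0.20), and Cd55, named after its value was seen. The count of 5 was 1 without sham replicate 2, 2 without sham replicate 5 or without the 4 arrays that stood apart, and 3 without M-MI replicate 2. The complement genes lost without those 4 arrays included Cfd, C6 and C5ar1. Cybb, the catalytic subunit of the phagocyte NADPH oxidase, differed by 0.22 (95% interval 0.08 to 0.37), 0.25 in S-MI and 0.20 in M-MI, and L-MI lay 0.64 above (adjusted p = 8.4e-05). The class II genes RT1-DMa, RT1-Ba and RT1-Da were higher by 0.16, 0.16 and 0.20, which made 3 of 18 for antigen presentation. RT1-Ba and RT1-Da lost their unadjusted p below 0.05 without the same 4 arrays. Cd4, which rat macrophages also carry, was higher by 0.20 (95% interval 0.05 to 0.35) and Cd3g of the T cell receptor complex by 0.31 (95% interval 0.01 to 0.60), 2 of 10 T cell markers. Of interferon-stimulated genes 27 of 30 had a difference above 0, with 0 at an unadjusted p below 0.05 and a median of 0.09. Their mean level was 8.72 in M-MI replicate 3 and between 7.54 and 8.03 in the other infarct arrays, against 7.61 to 7.83 in sham.

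**Figure D5:**
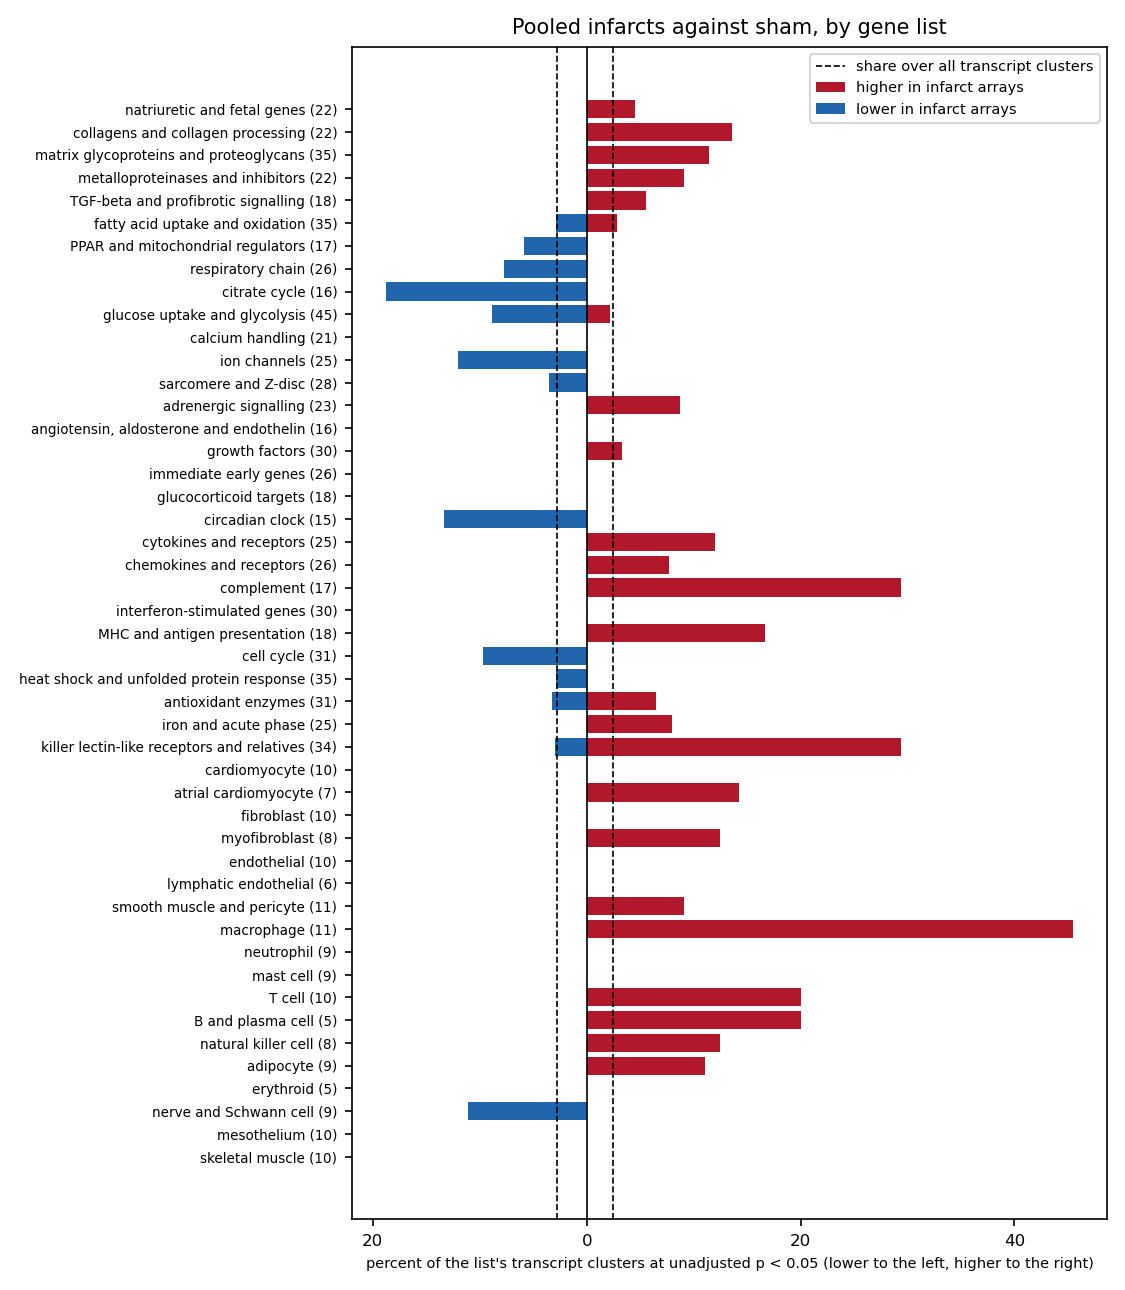
Percent of each gene list's transcript clusters (number in parentheses) with an unadjusted p below 0.05 in the pooled comparison, higher (bars to the right) and lower (bars to the left) in infarcted hearts. Dashed lines mark the shares over all clusters, 2.42% and 2.76%; macrophage, complement and killer lectin lists reach farthest to the right, with 5 of 11, 5 of 17 and 10 of 34.

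Of collagens and their processing enzymes 3 of 22 were higher, against 2.42% of all clusters, with a median of 0.00. All 3 were lysyl oxidases, the enzymes that cross-link collagen and elastin. Lox differed by 0.28 (95% interval 0.09 to 0.48), 0.26 in S-MI and 0.30 in M-MI. Loxl1 differed by 0.30 (95% interval 0.06 to 0.55) and Loxl2 by 0.16 (95% interval 0.01 to 0.30), the last with 0.24 in S-MI and 0.07 in M-MI. L-MI exceeded the pooled infarcts for Lox by 0.48 (adjusted p = 0.00168) and for Loxl2 by 0.57 (adjusted p = 1.95e-05). Loxl2 no longer had an unadjusted p below 0.05 without the 4 arrays that stood apart. Of matrix glycoproteins and proteoglycans 4 of 35 were higher (Fbn1, Fn1, Eln and Fbln2), and the median of 0.07 stood beside 29 members above 0. Fbn1 (fibrillin 1, of elastic microfibrils) differed by 0.29 (95% interval 0.07 to 0.51), 0.39 in S-MI and 0.19 in M-MI. Markers of fibroblasts gave 0 of 10 in either direction, with a median of 0.02.

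Genes of energy metabolism differed little from sham, with list medians between -0.05 and -0.01, but most of their clusters lay below it. A difference above 0 was found for 8 of 35 clusters of fatty acid uptake and oxidation and 3 of 26 of the respiratory chain. The same held for 8 of 45 of glycolysis and 2 of 17 of PPAR and mitochondrial regulators. The share of all clusters above 0 was not counted. Other lists also leaned lower, such as cell cycle (8 of 31 above 0) and heat shock and unfolded protein response (11 of 35), while growth factors (18 of 30) did not. Fatty acid uptake and oxidation had 1 higher (Ucp2, an uncoupling protein, 0.28) and 1 lower (Acads, a short-chain acyl-CoA dehydrogenase, -0.10) of 35. These counts were near the shares of all clusters, 2.42% and 2.76%. The median was -0.03, while L-MI was below the pooled infarcts in 15 of the 35. Of the respiratory chain 2 of 26 were lower, both subunits of succinate dehydrogenase. Sdhb ran from 11.72 to 11.79 in sham (median 11.76), from 11.59 to 11.74 in S-MI (median 11.65) and from 11.55 to 11.74 in M-MI (median 11.68), and differed by -0.09 (95% interval -0.17 to -0.02). Sdhd also differed by -0.09 (95% interval -0.16 to -0.02), -0.09 in each group, and 11 of 12 infarct arrays lay below all sham arrays. The citrate cycle had 3 lower of 16 and 0 above 0 in all, with a median of -0.04. These were 2 clusters of Dlat, of the pyruvate dehydrogenase complex (-0.10 and -0.09, with -0.16 in S-MI on both against -0.04 and -0.03 in M-MI), and Sucla2 (-0.08). Glycolysis had 4 lower and 1 higher of 45 clusters, which measure only 25 genes since some, such as Gapdh, have several clusters. Pgk1 (-0.14 in each group), Pfkfb1 (-0.32), Pdk1, a kinase that restrains pyruvate dehydrogenase (-0.13), and Pgam2, named after its value was seen, were lower. Pfkp was higher (0.18). Without the 4 arrays that stood apart Ucp2 differed by 0.44, and Pgk1 and Sucla2 no longer had an unadjusted p below 0.05.

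Ion channels had 3 lower of 25 and 0 higher, against 2.76% and 2.42% of all clusters. Scn4b, a beta subunit of the cardiac sodium channel, ran from 9.60 to 10.09 in sham (median 9.86), from 9.11 to 9.82 in S-MI (median 9.48) and from 9.44 to 9.77 in M-MI (median 9.58). The groups overlapped, with 7 of 12 infarct arrays below the lowest sham array. It differed by -0.34 ± 0.10 (SE, adjusted p = 0.885), with -0.40 in S-MI and -0.29 in M-MI, and L-MI lay a further 0.90 lower (adjusted p = 0.000288). The others were Hcn2 (-0.21) and Scn7a (-0.25). Of the circadian clock 2 of 15 were lower, Bhlhe41 (-0.19) and Tef (-0.24), and the median was -0.10, though Bhlhe41 lost its unadjusted p below 0.05 without the 4 arrays that stood apart. Bmal1, the activator of the clock, differed by 0.55 (95% interval -0.00 to 1.11). Calcium handling, immediate early genes, glucocorticoid targets and the angiotensin, aldosterone and endothelin genes had 0 in either direction, as had markers of endothelium and neutrophils. Nerve and Schwann cell markers had 1 lower of 9, Gfra3 (-0.30, 95% interval -0.51 to -0.09).

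The direct comparison of M-MI with S-MI, in which the sham arrays enter only the estimate of the spread, tested whether the pooled groups were alike. With limma 0 of 29214 (0%) passed an adjusted p of 0.05, the smallest being 0.0720, but 3660 (12.5%) had an unadjusted p below 0.05, 1769 (6.06%) with M-MI higher and 1891 (6.47%) with M-MI lower. This count was 2631 without S-MI replicate 4 and 5454 without S-MI replicate 3, and 2472 without the 4 arrays that stood apart. Of the 1514 clusters with an unadjusted p below 0.05 in the pooled comparison, 202 (13.3%) also had one here. Mc4r, a melanocortin receptor, had the smallest p. It ran from 7.0 to 7.36 in sham (median 7.19), from 7.26 to 7.45 in S-MI (median 7.41) and from 6.64 to 7.02 in M-MI (median 6.92), so that S-MI and M-MI did not overlap and lay on opposite sides of the sham median. M-MI was below S-MI by 0.52 ± 0.08 (SE, adjusted p = 0.0720), and the pooled difference from sham was -0.05. Cbr4, a mitochondrial carbonyl reductase, behaved alike, with 0.14 in S-MI and -0.21 in M-MI (adjusted p = 0.164 for the difference). Gstm6, a glutathione transferase, and Uox, urate oxidase, were higher in M-MI than in S-MI by 0.45 and 0.30 (adjusted p = 0.168 and 0.174). With limma-trend, without the 30% dimmest clusters, with median centring and among clusters with 1 symbol, the adjusted p of Mc4r was 0.0489, 0.0378, 0.0467 and 0.0237. Other settings raised it, to 0.277 without the 4 arrays that stood apart and 0.188 with all 23 LV arrays in the fit. It was 0.148 with a replicate block, 0.117 with quantile normalization repeated and 0.0994 with array weights. With 1 array left out it ranged from 0.0618 to 0.263. For all 4 genes the pooled difference lay between -0.05 and 0.04 while the means of the infarct groups lay on opposite sides of the sham mean.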

How the data were processed

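LV tissue was profiled on Affymetrix Rat Gene 1.0 ST arrays. The authors deposited log2 signals made with RMA and Partek, whose versions are not given in the sources used here, and the log base was taken as log2. Gene names were taken from the annotation of the platform if it listed a single symbol (15310 clusters), otherwise from the study's tables (178); 323 clusters had several symbols and 13726 none. In R 4.3.3 with limma 3.58.1, group means were fitted over the 18 arrays (lmFit, eBayes) and contrasted. L-MI was compared with the pooled infarcts in a fit over 23 arrays. P values were adjusted by Benjamini-Hochberg over all 29214 clusters, without a filter, and the code was checked on simulated data. Replicates are separate rats.

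Named were the 12 smallest p in each direction, the 4 largest differences in each direction at an unadjusted p below 0.01, the genes assayed by RT-qPCR, up to 4 members of each list by p, and the 2 smallest p of M-MI against S-MI in each direction, all with 1 symbol. Genes named after their values were seen are marked as such. Genes and lists were chosen with earlier results of these data known. Alternatives were other spread estimates, array weights, centring on array medians, a second quantile normalization, a filter on the 30% dimmest clusters, a replicate block, other thresholds, other samples in the fit and leaving out arrays. Figures were drawn with Python 3.11.15 and matplotlib 3.10.9. Columns of the authors' own comparisons, PBMC arrays and RT-qPCR data were not used here.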

Additional observations from a re-analysis of the deposited data

Results flagged for a closer look

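In 17 of 270 groups of 6 arrays, 1 array stood farther from its nearest neighbour than the 95% limit of Dixon's ratio allows, and chance flags about 1 in 20 such groups. Each ratio below is the gap to the nearest array over the range of the group. In sham, the high array was replicate 6 for Vom2r56 (5.64, ratio 0.695) and Clba1 (6.10, ratio 0.726) and replicate 5 for Fgf7 (7.17, ratio 0.638). The low sham array was replicate 5 for Gipc1 (8.58, ratio 0.638), replicate 6 for H19 cluster 10726991 (6.47, ratio 0.755), replicate 4 for Eln (7.40, ratio 0.769) and replicate 2 for Nppb (12.12, ratio 0.714). In S-MI, the high array was replicate 5 for Fabp5 (7.17, ratio 0.708), replicate 6 for C5ar1 (8.50, ratio 0.631) and replicate 1 for Uox (4.87, ratio 0.761), and the low array was replicate 4 for Nppb (10.50, ratio 0.647). In M-MI, the high array was replicate 6 for Klra22 (5.84, ratio 0.825) and replicate 5 for Col8a1 (7.0, ratio 0.706). The low M-MI array was replicate 1 for RT1-DMa (9.11, ratio 0.711) and C1qb (8.50, ratio 0.707), replicate 5 for Sdhb (11.55, ratio 0.642) and replicate 4 for Bhlhe41 (7.04, ratio 0.647).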

How the results depend on the processing

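The pooled comparison gave 0 calls under every alternative run. Its count at an unadjusted p below 0.05 was 937 among clusters with 1 symbol, an alternative chosen after seeing the data, and ranged from 1300 (without sham replicate 6) to 1823 (without S-MI replicate 4) when 1 array was left out, with 0 calls throughout. M-MI against S-MI gave 1 call, Mc4r, at any fold and at a fold of 1.3, with limma-trend, without the 30% dimmest clusters, with median centring and among clusters with 1 symbol, and 1 at an adjusted p of 0.1. Its count at an unadjusted p below 0.05 was 2001 among clusters with 1 symbol and ranged from 2631 to 5454 when 1 array was left out, with 0 calls. The cause of these changes was not tested, other than that fewer clusters were tested in 2 of the settings. Leaving out 1 array gave 7 to 10 killer lectin clusters, 2 to 6 macrophage and 1 to 6 complement clusters at an unadjusted p below 0.05. Macrophage clusters were 3 with median centring, and complement clusters 2 without the 4 arrays that stood apart. Cluster 10866144 of LOC100364751 differed by 0.36 to 0.42 when 1 array was left out, with adjusted p from 0.0857 to 0.669. Under other settings its adjusted p by limma was 0.0562 among clusters with 1 symbol and 0.267 with median centring. It was 0.672 with a replicate block and 0.701 without the 4 arrays that stood apart. Among the single genes refitted, 2 near-zero values changed sign when 1 array was left out: Col8a1 (-0.0511 to 0.0244) and Thbs4 (-0.0989 to 0.0533). L-MI against the pooled infarcts gave 703 calls from 17 arrays and 654 without L-MI replicate 1. Replicate numbers were not treated as pairs in the main fit. Same-numbered arrays of different groups correlated at -0.11 to 0.26 (median 0.04), and 6 of 18 correlated best with their own number. The highest values were those of sham and S-MI for replicates 4 (0.26) and 2 (0.17). Whether equal numbers mark a shared batch was not tested. With the replicate number as a block the pooled comparison gave 0 calls and 1654 clusters at an unadjusted p below 0.05, and M-MI against S-MI 0 and 3951. With 18 arrays the median 95% interval reached 0.13 to either side, which limits the shifts that can be detected.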
